A study of Mus musculus with 11 samples.

Results

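Interferon-stimulated genes are transcripts that cells raise when they sense interferon, and 36 of them were followed here by symbol, out of 57186 gene entries in the count table. All 36 symbols were present, each on 1 entry. The study sorted thymic DN3 cells, an early T cell precursor stage that carries neither CD4 nor CD8, and lung group 2 innate lymphoid cells (ILC2), tissue-resident lymphocytes that make type 2 cytokines, and compared them by bulk RNA sequencing. All animals were 14 days old, untreated and of the genotype Cd3giCreRosa26stopZsGreen, in which a Cre tied to Cd3g, a CD3 subunit gene, switches on the fluorescent protein ZsGreen for good. The lung groups separate ILC2 in which ZsGreen was switched on from those in which it was not. Cd3g transcript was present in all of them, at 416, 426 and 398 CPM (counts scaled to a common library size, with TMM factors) in DN3, 169, 134 and 154 CPM in ZsGreen-positive and 38.9, 40.8, 29.3, 34.1 and 33.7 CPM in ZsGreen-negative libraries. The ZsGreen-negative group was thus lower in Cd3g but not without it.

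There were 3 libraries of DN3 cells, 3 of ZsGreen-positive ILC2 and 5 of ZsGreen-negative ILC2. The labels give a batch date of 17 October 2024 for all 3 DN3 libraries, 2 September 2024 for ZsGreen-positive libraries 1 and 2 and ZsGreen-negative libraries 1 to 4, and 8 April 2025 for ZsGreen-positive library 3 and ZsGreen-negative library 5. Since no lung library shares the DN3 date, batch and cell type cannot be told apart wherever DN3 is compared. Whether libraries of a group stem from different animals is not stated, and the p-values then cover the spread among libraries only, part of which may be technical. Total counts lay between 4495260 and 17627469 per library, and 30 to 36 of the 36 genes had at least 1 count in a library. A set of 14 ILC2 markers summed to 1462 to 1508 CPM in DN3, 13646 to 16422 CPM in ZsGreen-positive and 13908 to 17361 CPM in ZsGreen-negative libraries. The 14 DN3 markers summed to 8959 to 9237 CPM in DN3, 1520 to 1681 CPM in ZsGreen-positive and 1590 to 1755 CPM in ZsGreen-negative libraries, so both labels match their markers.

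Type I interferons bind the receptor chains IFNAR1 and IFNAR2, whose kinases JAK1 and TYK2 start a signal that ends in a complex containing IRF9. That complex binds the interferon-stimulated response element (ISRE) in promoters, while interferon gamma acts mainly through gamma-activated sites (GAS). The genes switched on sense viral nucleic acid, block translation or virus release, or feed back on the pathway, and many are transcribed at a low tonic level without infection.

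Promoter sequence is shown first, since the ISRE is what these genes are known to share. RefSeq promoters (GRCm38.p6, 250 bases before to 50 after the start) were matched for 25 of the 36 genes, the others being Usp18, Dhx58, Zbp1, Oas2, Mx1, Mx2, Ly6e, Ifi27, Ifi27l2a, Rtp4 and Parp14. The ISRE letters searched were GAAA, any 2 bases and GAAA again, or TTTC, any 2 bases and TTTC as the same element reads on the other strand, with overlapping copies merged. They occurred in 13 of these 25 (52.0%), against 3.99% of the 27025 genes with a promoter in the table. GAS letters (TTCNNNGAA, which reads the same on both strands) occurred in 7 of 25 (28.0%), against 9.55% of all genes. Both occurred in 3 of the genes and neither in 8. A match describes these letters in this window and is not a mapped site. Capitals mark the run of ISRE letters nearest the gene start in each printed window, all upstream of it. Ifit1bl1 and Trim30a also hold the letters upstream and are not printed. The letters of Ifih1 and Eif2ak2 do not lie wholly upstream of the start.
Isg15, chr4:156200855-156200916, minus strand: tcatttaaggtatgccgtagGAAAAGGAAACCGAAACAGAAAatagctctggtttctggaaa
Oas1a, chr5:120907526-120907565, minus strand: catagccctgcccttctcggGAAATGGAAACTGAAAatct
Oas3, chr5:120777705-120777754, minus strand: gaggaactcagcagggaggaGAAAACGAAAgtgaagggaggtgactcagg
Ifit1, chr19:34640784-34640833, plus strand: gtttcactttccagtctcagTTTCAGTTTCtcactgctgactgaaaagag
Ifit3, chr19:34583387-34583436, plus strand: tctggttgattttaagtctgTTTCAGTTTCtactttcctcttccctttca
Ifit3b, chr19:34607783-34607832, plus strand: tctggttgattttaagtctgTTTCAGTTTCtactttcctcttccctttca
Gbp2, chr3:142620584-142620633, plus strand: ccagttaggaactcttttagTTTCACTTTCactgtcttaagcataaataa
Bst2, chr8:71537567-71537622, minus strand: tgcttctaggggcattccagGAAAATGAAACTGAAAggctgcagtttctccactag
Rsad2, chr12:26456543-26456592, minus strand: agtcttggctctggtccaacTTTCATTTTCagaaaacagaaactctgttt

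The printed windows of Ifit3 and its neighbour Ifit3b are identical letter for letter. Isg15, Oas1a and Bst2 hold overlapping copies of the letters. Of the 13 genes with ISRE letters, 6 were called higher, 2 lower and 3 neither in DN3 against ZsGreen-negative ILC2, and 2 were not tested. Of the 12 without them, 4 were called higher, 5 lower and 3 neither. Against ZsGreen-positive ILC2, 8 of the genes with the letters were called higher, 1 lower and 2 neither, and 4, 5 and 3 of those without them. Over all genes tested, 35.5% were called higher and 41.2% lower against ZsGreen-negative, and 34.8% and 40.3% against ZsGreen-positive ILC2. Whether calls differ with the letters was not tested.

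**Figure D1:**
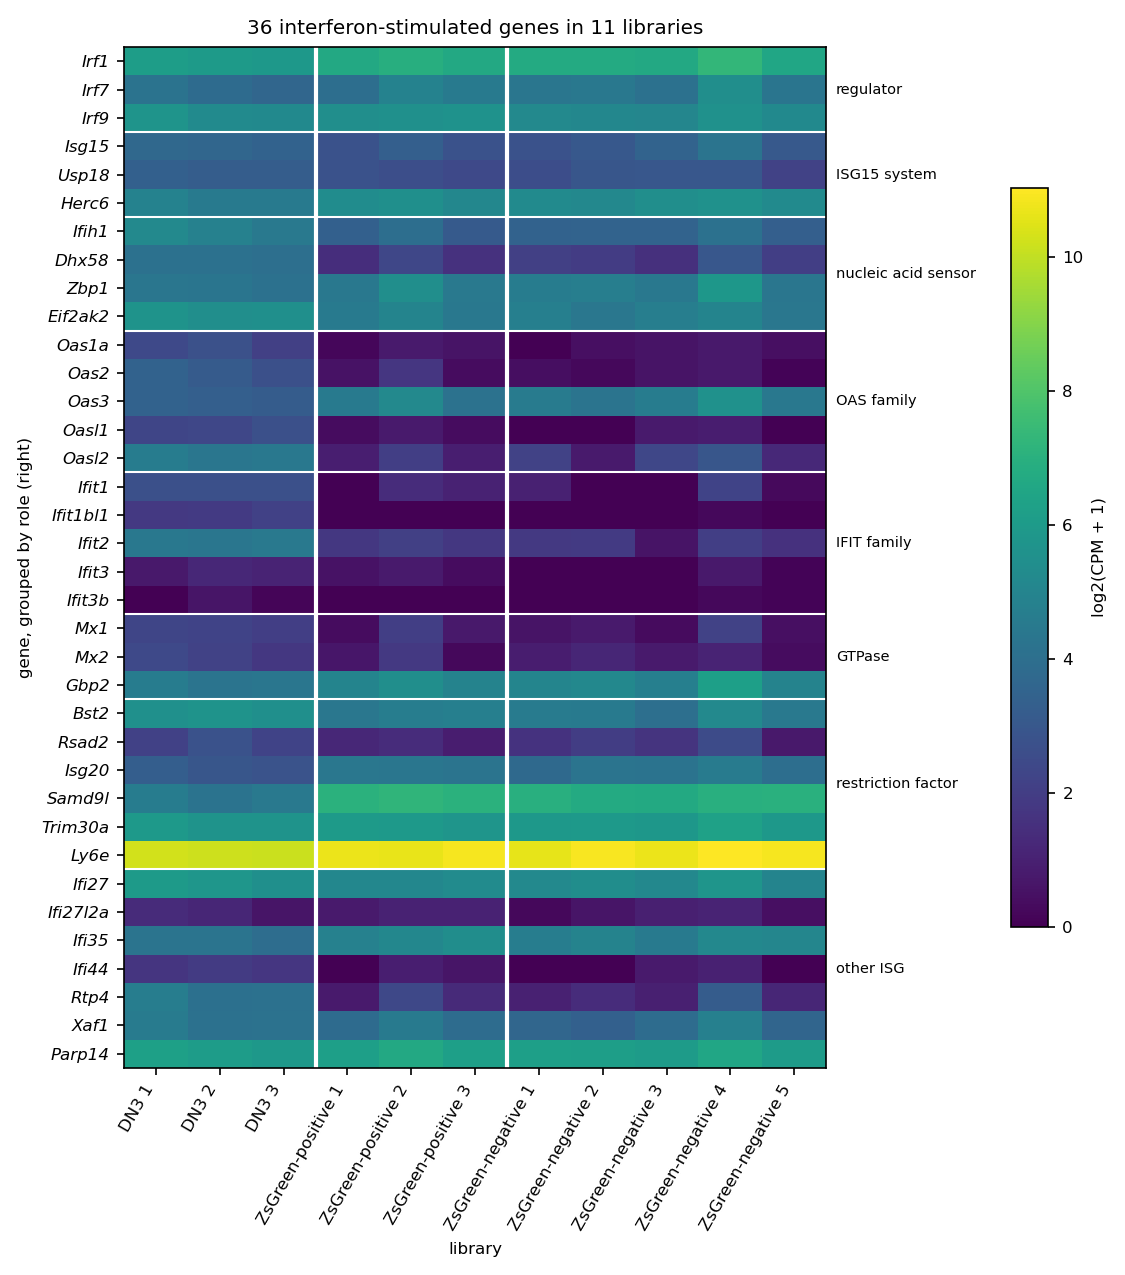
Level of each of the 36 genes (rows, grouped by role) in each of the 11 libraries (columns, with white lines between DN3, ZsGreen-positive and ZsGreen-negative), as log2(CPM + 1) on the colour scale. Ly6e is the brightest row in every library. The Rtp4 row and most Oas and Ifit rows are brighter in DN3, and the Oas3 and Samd9l rows are darker in DN3. The column of ZsGreen-negative library 4 is brighter than its neighbours in most rows.

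Some of these 36 transcripts were higher in thymic DN3 cells than in lung ILC2, and others, led by Samd9l, were lower. The largest differences were in oligoadenylate synthetase and Ifit genes, several of which were tested through their DN3 counts, as described below. The further interferon-stimulated genes had a median log2 fold change of -0.20 against ZsGreen-negative and -0.23 against ZsGreen-positive ILC2. A gene is called here when its Benjamini-Hochberg adjusted p in edgeR's quasi-likelihood test, taken over all genes tested, was under 0.05. Against ZsGreen-negative ILC2, 33 of the 36 genes passed the filter on low counts, 17 were called higher in DN3 and 8 lower. Over all 15132 genes tested the shares called were 35.5% higher and 41.2% lower, or 76.7% in either direction, so a call is the rule rather than the exception between these cell types. Against ZsGreen-positive ILC2, 18 were called higher and 7 lower, where all genes gave 34.8% and 40.3%, or 75.1% in either direction. Both comparisons use the same DN3 libraries. The median log2 fold change of the 33 genes was 0.66 against ZsGreen-negative and 0.82 against ZsGreen-positive ILC2, where the medians of all genes were -0.10 and -0.08. The second median stayed at 0.82 with Ifit1bl1, which had no count in ZsGreen-positive libraries, set at its lower bound. Oas1a, Oas2, Oasl1, Ifit1, Ifit1bl1, Mx1, Mx2, Ifi44 and Rtp4 did not pass the filter in the lung libraries alone. They were tested through their DN3 counts, so a higher level in DN3 was largely set in advance for them. The counts and medians above include them and so do not show a lean of the whole list. Of the genes that passed in the lung alone, Usp18, Ifih1, Dhx58, Eif2ak2, Oasl2, Ifit2, Bst2 and Ifi27 were called higher against ZsGreen-negative ILC2. Irf1, Herc6, Oas3, Gbp2, Isg20, Samd9l, Ly6e and Ifi35 were called lower. Against ZsGreen-positive ILC2 Isg15 and Rsad2 joined the first set and Gbp2 left the second. With at least 5 CPM in 3 libraries, 26 of the genes had medians of 0.23 and 0.06, where all genes had -0.03 and -0.01. That filter too can be passed through DN3 alone. In bulk libraries fewer cells that carry a transcript and less of it per cell cannot be told apart.

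**Figure D2:**
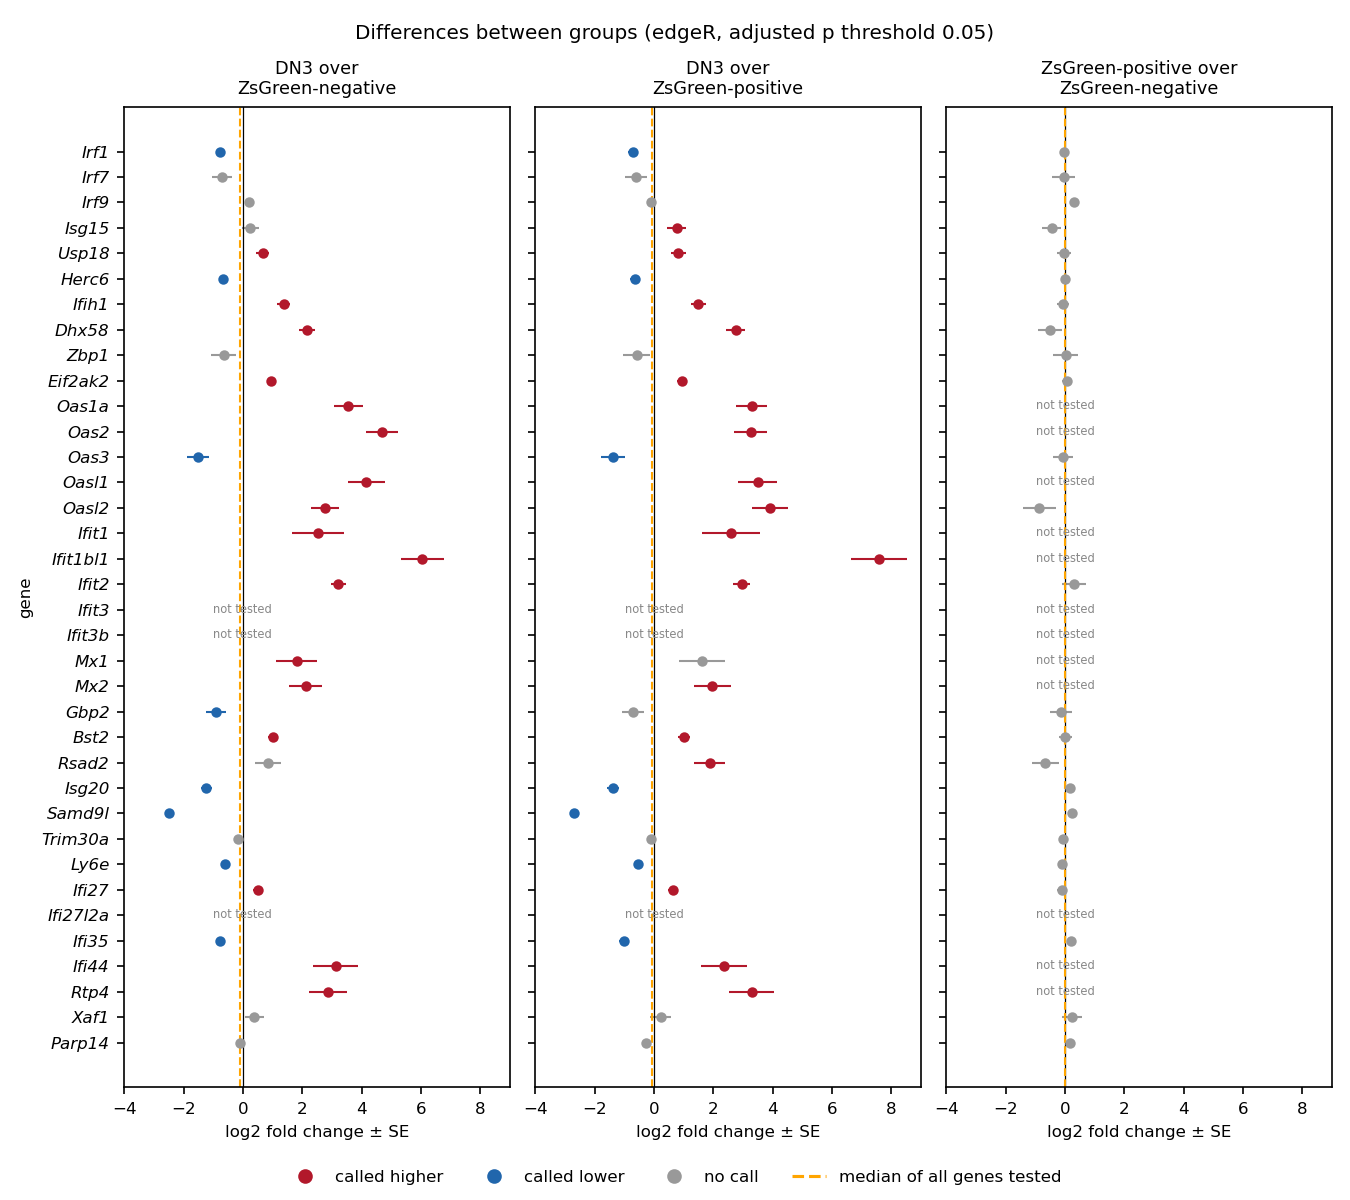
Log2 fold change (points) with its standard error (bars) for each gene in the 3 comparisons, red where called higher, blue where called lower and grey where neither. The dashed line is the median of all genes tested. Points run from -2.48 for Samd9l to 6.05 for Ifit1bl1 in DN3 over ZsGreen-negative, and stay between -0.86 and 0.32 in ZsGreen-positive over ZsGreen-negative, where none is coloured.

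The groups of libraries were often fully apart, as they also were for most of all genes tested. Of the 33 genes tested, levels did not overlap for 15 higher and 8 lower in DN3 against ZsGreen-negative ILC2, where all genes gave 33.6% and 39.9%. Against ZsGreen-positive ILC2 these numbers were 18 and 9, where all genes gave 35.7% and 42.1%.

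Among the regulators, Irf1, a transcription factor that both interferon types and other cytokines raise, was lower in DN3. It stood at 69.9, 64.5 and 58.9 CPM in DN3, 100.3, 121 and 100.2 CPM in ZsGreen-positive and 106, 108, 100.2, 158 and 90.9 CPM in ZsGreen-negative libraries. All DN3 libraries lay below all lung libraries. The log2 fold change was -0.77 ± 0.15 (SE; edgeR adjusted p = 0.000199) against ZsGreen-negative and -0.70 ± 0.16 (edgeR adjusted p = 0.00106) against ZsGreen-positive ILC2. Irf7, the factor that amplifies type I interferon transcription, stood at 17.2, 13.6 and 11.5 CPM in DN3, 15, 28.6 and 22.6 CPM in ZsGreen-positive and 19.2, 20.2, 16.6, 42.6 and 18.4 CPM in ZsGreen-negative libraries. Its groups overlapped, and the edgeR adjusted p was 0.0755 against ZsGreen-negative and 0.15 against ZsGreen-positive ILC2. Irf9, the DNA-binding subunit of the complex at the ISRE, averaged 42.1 ± 8.1 CPM in DN3, 45.9 ± 2.5 CPM in ZsGreen-positive and 37.01 ± 6.1 CPM in ZsGreen-negative libraries (SD) and was called in neither comparison. In the mouse annotation its exons overlap those of Rnf31, and those of Irf7 overlap Phrf1 on the opposite strand.

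The ISG15 system attaches the ubiquitin-like protein ISG15 to other proteins. Isg15 itself stood at 12.3, 11.4 and 9.94 CPM in DN3, 5.83, 9.17 and 5.82 CPM in ZsGreen-positive and 5.88, 7.22, 10.3, 17.97 and 7.44 CPM in ZsGreen-negative libraries. DN3 libraries were above every ZsGreen-positive library, while ZsGreen-negative library 3 lay within the DN3 range and ZsGreen-negative library 4 above it. The log2 fold change was 0.25 ± 0.29 (edgeR adjusted p = 0.442) against ZsGreen-negative and 0.76 ± 0.33 (edgeR adjusted p = 0.0423) against ZsGreen-positive ILC2. That second call was lost when DN3 library 1, 2 or 3, ZsGreen-positive library 1 or 3, or ZsGreen-negative library 3 was left out, with adjusted p of 0.0994, 0.0859, 0.0517, 0.124, 0.157 and 0.0528. Usp18, the protease that removes ISG15 and restrains IFNAR2 signalling, stood at 9.51, 8.56 and 8.48 CPM in DN3, 5.83, 5.32 and 4.48 CPM in ZsGreen-positive and 5.02, 6.86, 6.97, 6.99 and 3.57 CPM in ZsGreen-negative libraries. It was higher in every DN3 library, by a log2 fold change of 0.66 ± 0.23 (edgeR adjusted p = 0.012) against ZsGreen-negative and 0.82 ± 0.26 (edgeR adjusted p = 0.00663) against ZsGreen-positive ILC2. Herc6, the main ISG15 ligase in mice, went the other way, at 28.8, 22.4 and 22.3 CPM in DN3, 40.2, 44.7 and 33.4 CPM in ZsGreen-positive and 38.2, 34.5, 43.0, 47.3 and 37.3 CPM in ZsGreen-negative libraries. Its DN3 libraries lay below all others, with a log2 fold change of -0.68 ± 0.13 (edgeR adjusted p = 8.52e-05) against ZsGreen-negative and -0.65 ± 0.15 (edgeR adjusted p = 0.000398) against ZsGreen-positive ILC2.

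Of the 4 nucleic acid sensors among the members, 3 were called higher in DN3 in both comparisons. Of all genes, 35.5% were called higher against ZsGreen-negative and 34.8% against ZsGreen-positive ILC2. Dhx58 encodes LGP2, a cytosolic RNA sensor that modulates its relatives RIG-I and MDA5. It stood at 16.2, 16.6 and 15.4 CPM in DN3, 1.75, 4.03 and 2.00 CPM in ZsGreen-positive and 3.29, 2.89, 1.92, 6.99 and 3.12 CPM in ZsGreen-negative libraries. Every DN3 library lay above every lung library, and the log2 fold change was 2.16 ± 0.28 (edgeR adjusted p = 3.97e-07) against ZsGreen-negative and 2.75 ± 0.33 (edgeR adjusted p = 2.05e-07) against ZsGreen-positive ILC2. Ifih1, which encodes MDA5, the sensor of long double-stranded RNA, stood at 36.1, 27.6 and 21.2 CPM in DN3, 9.47, 14.7 and 7.64 CPM in ZsGreen-positive and 10.2, 10.3, 10.57, 16.1 and 9 CPM in ZsGreen-negative libraries. DN3 libraries were again above all lung libraries, by a log2 fold change of 1.37 ± 0.22 (edgeR adjusted p = 1.3e-05) and 1.503 ± 0.25 (edgeR adjusted p = 2.3e-05) against ZsGreen-negative and ZsGreen-positive ILC2. Eif2ak2 encodes PKR, the kinase that stops translation on double-stranded RNA. It stood at 50.3, 43.0 and 43.6 CPM in DN3, 22.7, 31.0 and 20.3 CPM in ZsGreen-positive and 26.5, 19.7, 25.2, 30.6 and 19.6 CPM in ZsGreen-negative libraries. The groups did not overlap, with log2 fold changes of 0.95 ± 0.15 (edgeR adjusted p = 7.45e-06) and 0.95 ± 0.17 (edgeR adjusted p = 3.7e-05) in the same order. Zbp1, a sensor of left-handed nucleic acid that can start necroptosis, averaged 17.9 ± 1.6 CPM in DN3, 28.0 ± 12.3 CPM in ZsGreen-positive and 28.9 ± 15.2 CPM in ZsGreen-negative libraries (SD) and was called in neither comparison.

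The oligoadenylate synthetase (OAS) family makes the second messenger that activates RNase L. Of its 5 members here, 4 were called higher in DN3 in both comparisons while Oas3 was called lower. For Oas1a, Oas2 and Oasl1, tested through their DN3 counts, a higher call was largely set in advance. Oasl2 and Oas3 also passed the filter in the lung alone. All genes gave 35.5% higher and 41.2% lower against ZsGreen-negative and 34.8% and 40.3% against ZsGreen-positive ILC2. Oas2 stood at 10.2, 8.03 and 5.54 CPM in DN3, 0.437, 2.38 and 0.303 CPM in ZsGreen-positive and 0.346, 0.180, 0.480, 0.666 and 0.0744 CPM in ZsGreen-negative libraries. ZsGreen-positive library 2 was the highest lung library and still below every DN3 library. The log2 fold change was 4.69 ± 0.55 (edgeR adjusted p = 1.47e-07) against ZsGreen-negative and 3.26 ± 0.55 (edgeR adjusted p = 1.93e-05) against ZsGreen-positive ILC2, the second being 4.48 without ZsGreen-positive library 2 and 2.60 without ZsGreen-positive library 3. Oas1a, a catalytically active synthetase, had 32, 53 and 29 counts in DN3, 1, 4 and 8 counts in ZsGreen-positive and 0, 2, 2, 4 and 5 counts in ZsGreen-negative libraries. The lung libraries sat near the limit of detection, and the log2 fold change was 3.56 ± 0.47 (edgeR adjusted p = 5.8e-07) and 3.30 ± 0.52 (edgeR adjusted p = 6.74e-06) against ZsGreen-negative and ZsGreen-positive ILC2. In the annotation 57.6% of the 50-base stretches of Oas1a are shared with Oas1g, so reads may have been split between the pair or dropped.

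Oasl1, which in mice represses translation of Irf7, had 28, 39 and 48 counts in DN3, 2, 4 and 5 counts in ZsGreen-positive and 0, 0, 3, 5 and 0 counts in ZsGreen-negative libraries. Its log2 fold change was 4.17 ± 0.63 (edgeR adjusted p = 4.42e-06) against ZsGreen-negative and 3.50 ± 0.66 (edgeR adjusted p = 7.2e-05) against ZsGreen-positive ILC2, the first being 5.22 without ZsGreen-negative library 4 and 3.56 without ZsGreen-negative library 5. Oasl2, an OAS-like protein, stood at 23.8, 18.9 and 20.2 CPM in DN3, 0.874, 3.12 and 0.909 CPM in ZsGreen-positive and 3.46, 0.722, 4.08, 6.82 and 1.41 CPM in ZsGreen-negative libraries. DN3 libraries were far above both lung groups, which spread widely among themselves. The log2 fold change was 2.78 ± 0.48 (edgeR adjusted p = 0.000224) against ZsGreen-negative and 3.92 ± 0.61 (edgeR adjusted p = 0.000117) against ZsGreen-positive ILC2, the second being 4.55 without ZsGreen-positive library 2. Oas3, the largest synthetase, was the reverse case, at 10.1, 9.09 and 8.25 CPM in DN3, 21.8, 35.6 and 16.7 CPM in ZsGreen-positive and 23.2, 18.04, 23.8, 46.9 and 20.7 CPM in ZsGreen-negative libraries. All DN3 libraries were below all lung libraries, with a log2 fold change of -1.50 ± 0.37 (edgeR adjusted p = 0.00382) against ZsGreen-negative and -1.37 ± 0.40 (edgeR adjusted p = 0.0105) against ZsGreen-positive ILC2. Within DN3, Oasl2 was thus the most abundant family member per length at 3.29 CPM per kilobase of exon, and within ZsGreen-positive and ZsGreen-negative ILC2 it was Oas3 at 3.50 and 3.75 CPM per kilobase.

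IFIT proteins bind foreign RNA ends, and the 3 Ifit genes that could be tested were all called higher in DN3 in both comparisons. For Ifit1 and Ifit1bl1, tested through their DN3 counts, this was largely set in advance, and only Ifit2 also passed the filter in the lung alone. The share of all genes called higher was 35.5% against ZsGreen-negative and 34.8% against ZsGreen-positive ILC2. Ifit2, which in mice restricts neurotropic viruses, stood at 20.7, 18.9 and 21.1 CPM in DN3, 2.48, 3.30 and 2.42 CPM in ZsGreen-positive and 2.59, 2.71, 0.480, 3.16 and 1.93 CPM in ZsGreen-negative libraries. The 3 DN3 libraries lay close together and well above every lung library. Ifit2 rose by a log2 fold change of 3.22 ± 0.25 (edgeR adjusted p = 8.67e-11) against ZsGreen-negative and 2.96 ± 0.28 (edgeR adjusted p = 3.2e-09) against ZsGreen-positive ILC2, the smallest p among the higher genes in both. Ifit1bl1, a copy in the same cluster, had 18, 25 and 30 counts in DN3, 0 in each ZsGreen-positive library and 1 count in ZsGreen-negative library 4 with 0 in the other ZsGreen-negative libraries. The summed counts, 73 in DN3 against 1 in ZsGreen-negative ILC2, gave a ratio of 100 per unit depth with an exact 95% interval of 17.4 to 4010. Against ZsGreen-positive ILC2, where 0 counts over the group allow up to 0.104 CPM (3 counts), it was at least 27.5-fold higher. Intervals and limits cover counting error only. In edgeR's test Ifit1bl1 had an adjusted p of 1.86e-07 against ZsGreen-negative and 4.54e-07 against ZsGreen-positive ILC2.

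Ifit1 had 39, 51 and 49 counts in DN3, 0, 9 and 18 in ZsGreen-positive and 6, 0, 0, 22 and 3 in ZsGreen-negative libraries. Its 3 DN3 levels, 5.45, 5.39 and 5.54 CPM, were the least spread of all the genes in DN3. Its log2 fold change was 2.54 ± 0.87 (edgeR adjusted p = 0.0205) against ZsGreen-negative ILC2 and 4.08 (edgeR adjusted p = 4.04e-05) without ZsGreen-negative library 4. That call was lost without DN3 library 2 or 3 (adjusted p of 0.051 and 0.0527) and with DESeq2 (0.109). Against ZsGreen-positive ILC2 the log2 fold change of 2.59 ± 0.99 (edgeR adjusted p = 0.0335) was likewise lost without DN3 library 1, 2 or 3 or ZsGreen-positive library 1 or 3, with adjusted p of 0.0656, 0.0701, 0.0718, 0.0674 and 0.084, and with DESeq2 (0.141). Ifit3 and Ifit3b did not pass the filter. Ifit3 had 5, 13 and 10 counts in DN3, 3, 4 and 5 in ZsGreen-positive and 0, 0, 0, 4 and 1 in ZsGreen-negative libraries, and Ifit3b had 6 counts in DN3, 0 in ZsGreen-positive and 2 in ZsGreen-negative libraries in all. In the annotation 51.2% of the 50-base stretches of Ifit3 occur in Ifit3b, so both totals are uncertain.

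Mx2 and Mx1 are interferon-induced, dynamin-like GTPases that trap viral components, and Mx2 was called higher in DN3 in both comparisons. Both genes were tested through their DN3 counts, so a higher call was largely set in advance. Mx2 stood at 4.34, 3.49 and 2.49 CPM in DN3, 0.583, 2.57 and 0.182 CPM in ZsGreen-positive and 0.865, 1.26, 0.721, 1.16 and 0.298 CPM in ZsGreen-negative libraries. Its DN3 libraries were above all ZsGreen-negative libraries, and ZsGreen-positive library 2 reached into the DN3 range. Its log2 fold change was 2.11 ± 0.56 (edgeR adjusted p = 0.00195) against ZsGreen-negative and 1.97 ± 0.63 (edgeR adjusted p = 0.00822) against ZsGreen-positive ILC2, the second being 3.40 without ZsGreen-positive library 2 and 1.22 (adjusted p = 0.0563, no longer called) without ZsGreen-positive library 3. Mx1 had 3.92, 3.70 and 3.16 CPM in DN3, 0.291, 3.12 and 0.667 CPM in ZsGreen-positive and 0.519, 0.722, 0.240, 3.49 and 0.372 CPM in ZsGreen-negative libraries. One lung library in each group, ZsGreen-positive 2 and ZsGreen-negative 4, stood at about the DN3 level and the rest far below. Mx1 was called higher against ZsGreen-negative ILC2 (log2 fold change 1.81 ± 0.69, edgeR adjusted p = 0.0259) and not against ZsGreen-positive ILC2 (1.62 ± 0.76, adjusted p = 0.067). The first was 2.97 without ZsGreen-negative library 4 and was lost without DN3 library 1 or 2 or ZsGreen-negative library 1, 2 or 5, with adjusted p of 0.0603, 0.0606, 0.0572, 0.0575 and 0.0634.

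Gbp2, a guanylate-binding protein of the interferon gamma response, stood at 24.1, 18.2 and 18.9 CPM in DN3, 30.6, 42.5 and 29.3 CPM in ZsGreen-positive and 31.7, 34.5, 26.4, 73.1 and 29.4 CPM in ZsGreen-negative libraries. All DN3 libraries were below all lung libraries. It was called lower against ZsGreen-negative ILC2 (-0.91 ± 0.35, edgeR adjusted p = 0.0367) and not against ZsGreen-positive ILC2 (-0.70 ± 0.38, adjusted p = 0.122). The first call was lost without DN3 library 1, 2 or 3 or ZsGreen-positive library 1 or 3, with adjusted p of 0.053, 0.112, 0.102, 0.0501 and 0.0582.

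The restriction factors held both directions. Samd9l, an antiviral protein that blocks translation in infected cells, had the largest fall of the 33 genes tested, at 23.5, 17.5 and 20.9 CPM in DN3, 130.5, 149.8 and 133 CPM in ZsGreen-positive and 125, 106, 102, 122 and 128 CPM in ZsGreen-negative libraries. The DN3 libraries were far below both lung groups, with a log2 fold change of -2.48 ± 0.11 (edgeR adjusted p = 8.19e-15) against ZsGreen-negative and -2.71 ± 0.12 (edgeR adjusted p = 5.66e-15) against ZsGreen-positive ILC2. Isg20, an RNA exonuclease, was lower as well, at 8.95, 6.66 and 5.99 CPM in DN3, 19.7, 19.3 and 18.2 CPM in ZsGreen-positive and 12.8, 17.9, 17.3, 23.1 and 14.9 CPM in ZsGreen-negative libraries. No lung library of either group came down to the DN3 levels, and the log2 fold change was -1.23 ± 0.19 (edgeR adjusted p = 4.33e-06) against ZsGreen-negative and -1.37 ± 0.20 (edgeR adjusted p = 2.44e-06) against ZsGreen-positive ILC2. Ly6e, a membrane protein that impairs coronavirus entry and also known as a thymic surface antigen, was lower by a smaller margin, at 1225, 1161 and 1149.97 CPM in DN3, 1682, 1610.3 and 1906 CPM in ZsGreen-positive and 1571, 1929.6, 1685, 2097 and 1869 CPM in ZsGreen-negative libraries. Its log2 fold change was -0.60 ± 0.10 (edgeR adjusted p = 1.04e-05) and -0.52 ± 0.11 (edgeR adjusted p = 0.000185) against ZsGreen-negative and ZsGreen-positive ILC2. Per kilobase of exon Ly6e ranked first of the 36 genes in every group, at a mean of 311 CPM in DN3, 458 CPM in ZsGreen-positive and 484 CPM in ZsGreen-negative libraries. All 36 genes together took 0.208% to 0.281% of a library's counts, and 0.0608% to 0.0941% without Ly6e.

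Bst2, or tetherin, which holds budding virus at the cell surface, was higher in DN3, at 46.2, 49.8 and 44.4 CPM in DN3, 19.5, 24.9 and 26.3 CPM in ZsGreen-positive and 22.8, 22.6, 15.1, 36.1 and 20.8 CPM in ZsGreen-negative libraries. Every DN3 library exceeded every lung library, ZsGreen-negative library 4 coming nearest. Its log2 fold change was 1.02 ± 0.18 (edgeR adjusted p = 5.42e-05) against ZsGreen-negative and 1.01 ± 0.20 (edgeR adjusted p = 0.000203) against ZsGreen-positive ILC2. Rsad2 encodes viperin, which makes a chain-terminating nucleotide. It had 24, 55 and 32 counts in DN3, 9, 9 and 14 in ZsGreen-positive and 12, 17, 9, 29 and 9 in ZsGreen-negative libraries. It was called higher against ZsGreen-positive ILC2 (1.88 ± 0.52, edgeR adjusted p = 0.00252) and not against ZsGreen-negative ILC2 (0.85 ± 0.42, adjusted p = 0.0747), where library 4 overlapped DN3. Trim30a, which in mice dampens innate signalling, averaged 53.5 ± 6.3 CPM in DN3, 58.9 ± 5.8 CPM in ZsGreen-positive and 61.8 ± 8.9 CPM in ZsGreen-negative libraries (SD) and was called in neither.

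Among the remaining genes, Rtp4, a chaperone-like protein, was higher in DN3 at 24.3, 15.8 and 16.2 CPM in DN3, 0.728, 4.22 and 1.52 CPM in ZsGreen-positive and 1.04, 1.62, 0.961, 8.32 and 1.26 CPM in ZsGreen-negative libraries. ZsGreen-positive library 2 and ZsGreen-negative library 4 stood out within their groups and remained below DN3. Rtp4 differed by a log2 fold change of 2.88 ± 0.64 (edgeR adjusted p = 0.00227) against ZsGreen-negative ILC2, or 3.93 without ZsGreen-negative library 4, and 3.29 ± 0.77 (edgeR adjusted p = 0.00319) against ZsGreen-positive ILC2, or 3.93 without ZsGreen-positive library 2. Ifi44 had 16, 26 and 21 counts in DN3, 0, 5 and 9 in ZsGreen-positive and 0, 0, 3, 6 and 0 in ZsGreen-negative libraries. Its calls of 3.13 ± 0.77 (edgeR adjusted p = 0.00114) against ZsGreen-negative and 2.36 ± 0.77 (edgeR adjusted p = 0.0102) against ZsGreen-positive ILC2 were not made by DESeq2 (adjusted p of 0.0574 and 0.171). The first was 4.35 without ZsGreen-negative library 4 and 2.53 without ZsGreen-negative library 5. Ifi27, a mitochondrial protein, stood at 63.5, 55.3 and 43.6 CPM in DN3, 33.5, 33.0 and 39.3 CPM in ZsGreen-positive and 35.98, 41.7, 34.3, 53.4 and 30.6 CPM in ZsGreen-negative libraries. It was higher by a log2 fold change of 0.50 ± 0.15 (edgeR adjusted p = 0.00542) against ZsGreen-negative ILC2, where library 4 overlapped DN3, and of 0.64 ± 0.17 (edgeR adjusted p = 0.00216) against ZsGreen-positive ILC2.

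Ifi35, a partner of the interferon-induced protein NMI, was lower, at 17.8, 18.1 and 14.5 CPM in DN3, 27.7, 33.4 and 41.6 CPM in ZsGreen-positive and 24.9, 29.8, 21.6, 34.4 and 32.4 CPM in ZsGreen-negative libraries. No library of the lung groups fell into the DN3 range, with a log2 fold change of -0.76 ± 0.16 (edgeR adjusted p = 0.000158) against ZsGreen-negative and -1.01 ± 0.17 (edgeR adjusted p = 1.27e-05) against ZsGreen-positive ILC2. Xaf1, which favours apoptosis, averaged 18.7 ± 3.6 CPM in DN3, 16.6 ± 5.1 CPM in ZsGreen-positive and 14.6 ± 7.2 CPM in ZsGreen-negative libraries (SD). Parp14, a mono-ADP-ribosyltransferase, averaged 67.5 ± 9.1 CPM in DN3, 82.6 ± 15.5 CPM in ZsGreen-positive and 73.9 ± 11.1 CPM in ZsGreen-negative libraries (SD). Neither was called in either comparison. Ifi27l2a, with 28 counts in DN3, 29 in ZsGreen-positive and 20 in ZsGreen-negative libraries in all, did not pass the filter. In the annotation 12 of the 36 genes share exon positions with another gene, 8 of them with one on the opposite strand (among them Dhx58, Eif2ak2, Oasl1, Irf1 and Usp18), and whether counting used the strand is not given in the sources used here.

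Between ZsGreen-positive and ZsGreen-negative lung ILC2 none of these genes was called different. Of the 36 genes, 24 passed the filter in the 8 lung libraries, and edgeR called 0 higher and 0 lower in ZsGreen-positive ILC2, where 2.35% of all 13771 genes tested were called higher, 2.18% lower and 4.52% in either direction. Within the batch of 2 September 2024 alone the counts were again 0 and 0. DESeq2 and limma voom also called 0, and 2 genes had an unadjusted edgeR p under 0.05. These were Irf9 (log2 fold change 0.31 ± 0.12, edgeR adjusted p = 0.19) and Samd9l (0.23 ± 0.09, edgeR adjusted p = 0.197), followed by Parp14 (0.18 ± 0.12, edgeR adjusted p = 0.506). Samd9l was the single gene whose groups did not overlap, at 130.5 to 149.8 CPM in ZsGreen-positive and 102 to 128 CPM in ZsGreen-negative libraries, where 5.27% of all genes were apart in that direction. Irf9 stood at 43.4, 46.0 and 48.3 CPM in ZsGreen-positive and 35.5, 33.2, 32.2, 47.4 and 36.8 CPM in ZsGreen-negative libraries. ZsGreen-negative library 4 alone reached the ZsGreen-positive range, and without it Irf9 was called higher (0.40 ± 0.10, edgeR adjusted p = 0.0328), the one call among the genes in any alternative fit of this comparison. Log2 fold changes ran from -0.86 ± 0.56 for Oasl2 to 0.32 ± 0.40 for Ifit2, with a median of -0.03 against -0.00 for all genes. The standard errors of genes such as Oasl2, Rsad2 (0.45) and Zbp1 (0.42) leave differences of that size undetectable with these libraries, so the absence of a call does not show equal levels.

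The 12 genes that did not pass the filter in the lung were Oas1a, Oas2, Oasl1, Ifit1, Ifit1bl1, Ifit3, Ifit3b, Mx1, Mx2, Ifi27l2a, Ifi44 and Rtp4. Over the group, their summed counts ran from 0 (Ifit1bl1 and Ifit3b) to 53 (Rtp4) in ZsGreen-positive and from 1 (Ifit1bl1) to 86 (Rtp4) in ZsGreen-negative libraries.

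**Figure D3:**
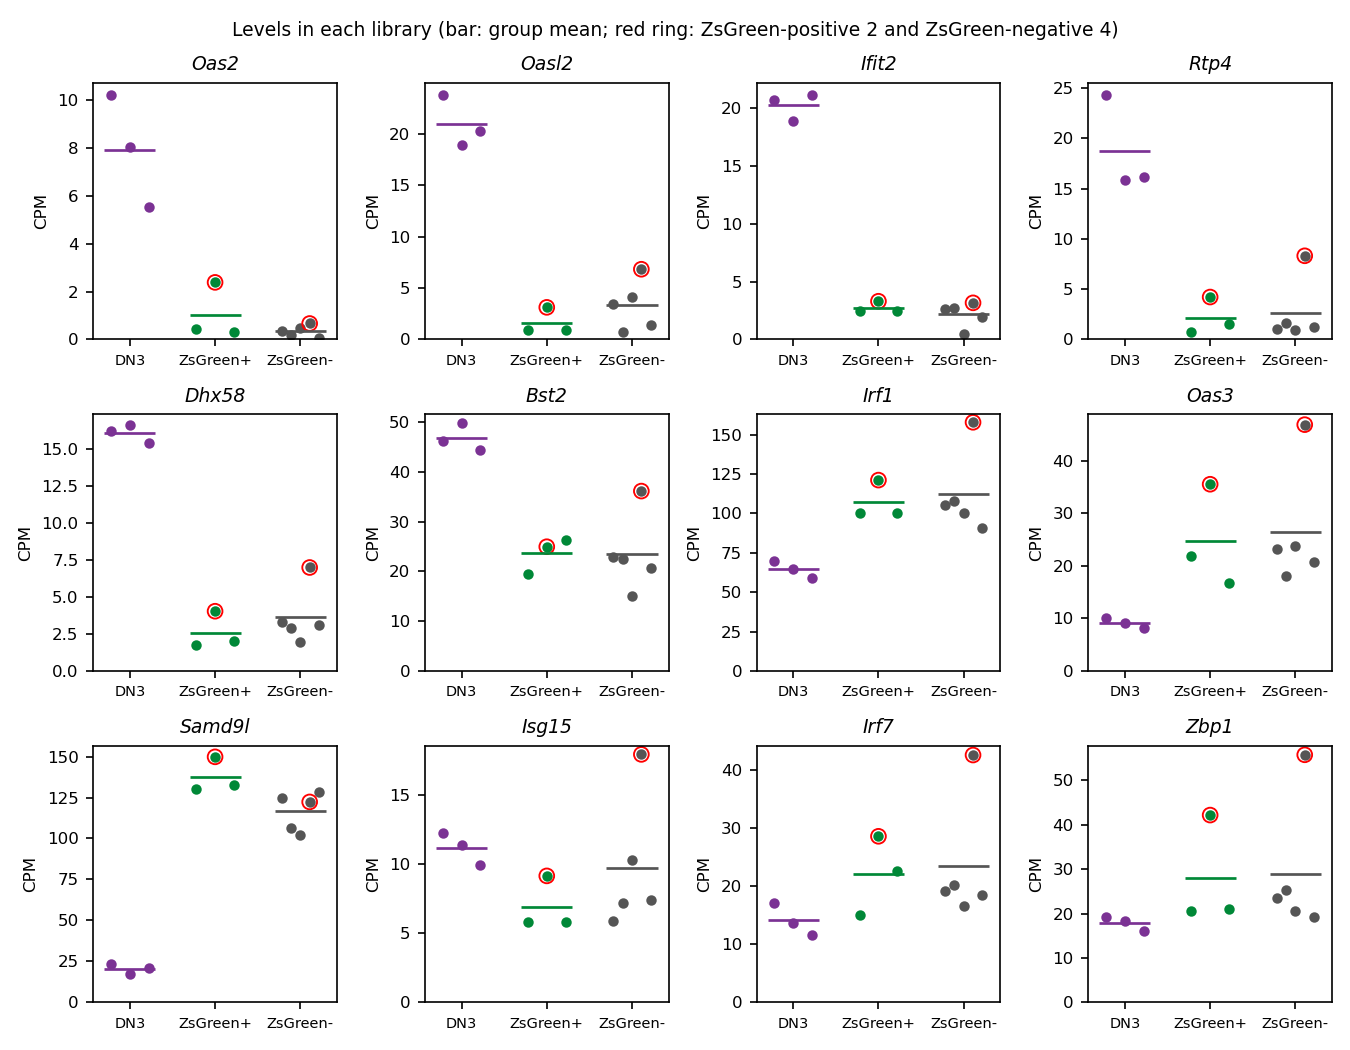
CPM of 12 of the genes in each library (points), with the mean of each group (bars) and red rings around ZsGreen-positive library 2 and ZsGreen-negative library 4. Oas2, Oasl2, Ifit2, Rtp4, Dhx58 and Bst2 are higher and Irf1, Oas3 and Samd9l lower in every DN3 library than in any lung library. Both ringed libraries top their groups for all genes shown except Bst2 and Samd9l.

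The variation within the lung groups lay mostly in 2 libraries. ZsGreen-negative library 4 was the highest of the 5 ZsGreen-negative libraries for 23 of the 24 genes tested (95.8%), while it was the highest for 21.0% of all genes tested. Samd9l was the exception, its highest value being in library 5. The level of library 4 relative to the mean of the other 4 had a median of 1.59 over the 24 genes, with a range of 1.06 to 2.82, where the median of all genes was 0.994. Zbp1 was at 55.7 CPM there against 19.2 to 25.3 CPM in the other ZsGreen-negative libraries, and Oas3, Irf7 and Gbp2 behaved alike. The ratio was over 1.5 for 13 of the 24 genes, where 3.67% of all genes passed it. These libraries were picked out after their values were seen, so the counts are a description.

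ZsGreen-positive library 2 was likewise the highest of 3 for 16 of the 24 genes (66.7%), against 29.2% of all genes. Its ratio to the mean of the other 2 libraries had a median of 1.36, where all genes had 0.971, and was over 1.5 for 9 genes, where 6.83% of all genes passed it. All 9 also passed 1.5 in ZsGreen-negative library 4. They were Irf7, Isg15, Ifih1, Dhx58, Zbp1, Oas3, Oasl2, Rsad2 and Xaf1. Both libraries belong to the batch of 2 September 2024, which also holds libraries without this pattern. Their library names are consecutive, and whether they share an animal or a sort is not stated. Within that batch ZsGreen-negative library 4 was still the highest of 4 for 23 genes. In DN3, library 1 was the highest of 3 for 23 of 33 genes (69.7%), against 46.6% of all genes.

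The mean log2(CPM + 1) over the 36 genes condenses this. It was 3.98, 3.87 and 3.74 in DN3, 3.08, 3.61 and 3.16 in ZsGreen-positive and 3.14, 3.14, 3.13, 3.87 and 3.03 in ZsGreen-negative libraries. ZsGreen-negative library 4 lay in the DN3 range, ZsGreen-positive library 2 between the groups, and the other 6 lung libraries close together. Group means were 3.87 ± 0.12 in DN3, 3.28 ± 0.28 in ZsGreen-positive and 3.26 ± 0.34 in ZsGreen-negative libraries (SD). With both libraries left out, an alternative chosen after seeing the data, 35 of the 36 genes were tested in the DN3 comparisons, Ifit3 now among them. In DN3 22 were called higher and 9 lower against ZsGreen-negative ILC2, where 5480 and 6414 of all 15672 genes were. Against ZsGreen-positive ILC2 21 were called higher and 8 lower, where 5247 and 6160 of all genes were. Ifit3 was called higher in both. Between the lung groups the counts were again 0 and 0, where 163 and 177 of all 14129 genes were called.

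**Figure D4:**
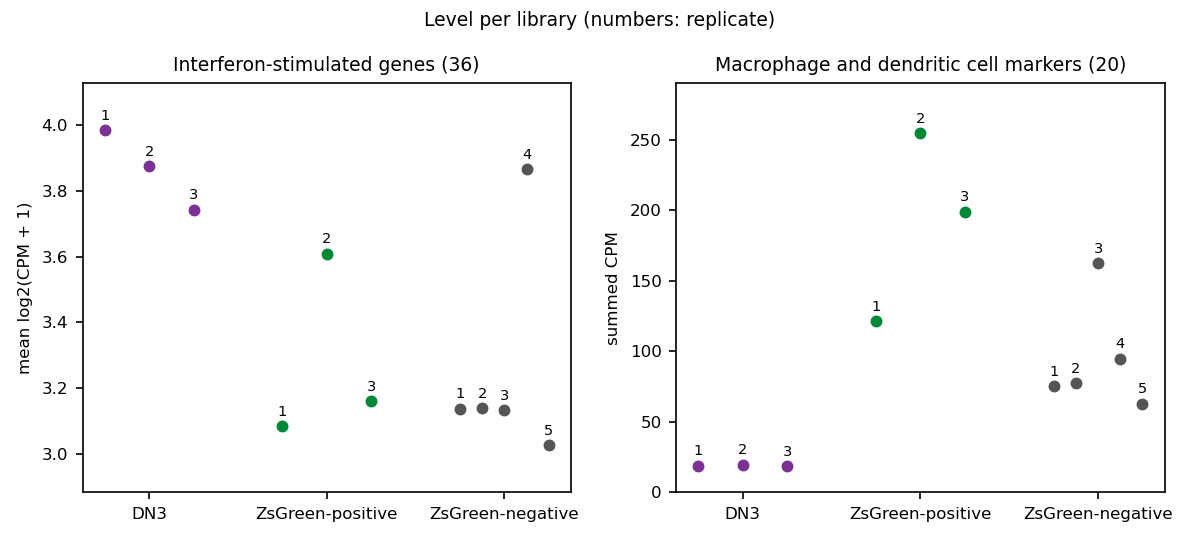
Left, mean log2(CPM + 1) over the 36 genes in each library, and right, summed CPM of 20 macrophage and dendritic cell markers (mostly Lyz2 in lung libraries), with points numbered by replicate. ZsGreen-negative library 4 is high on the left (3.87) and within its group on the right (94.7 CPM), while ZsGreen-positive library 2 is the highest of its group in both panels (3.61 and 254.9 CPM).

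Markers of other cells were measured beside this pattern. Of 23 macrophage, monocyte and dendritic cell markers, Ccr2, Plac8 and Tcf4 were left out after their values were seen, each being high in DN3 or in all lung libraries. Ccr2 alone stood at 962.6 to 1243 CPM in the lung libraries. The other 20 summed to 18.4 to 19.8 CPM in DN3, where Marco, Fcgr1, Cx3cr1, Xcr1, Clec9a, Siglech, Cd209a and C1qc were at 0. They came to 122, 254.9 and 199 CPM in ZsGreen-positive and 75.3, 77.6, 163, 94.7 and 62.9 CPM in ZsGreen-negative libraries. Lyz2, a myeloid lysozyme gene, made up most of the sum in every lung library, at 101, 195 and 168 CPM in ZsGreen-positive and 57.4, 60.3, 117, 63.7 and 45.4 CPM in ZsGreen-negative libraries. Of all 23 markers, 13 were highest in ZsGreen-positive library 2 of the 3, Marco, a macrophage scavenger receptor, and Csf1r among them, while Cx3cr1, C1qa, C1qb and C1qc were not. ZsGreen-negative library 4 was the highest of its 5 for 6 of the 23, among them Csf1r at 4.16 CPM, Adgre1 at 3.16 CPM and Marco at 2.33 CPM, and library 3 for 8. The part of such cells in the interferon-stimulated levels of either library was not tested. Siglech, a plasmacytoid dendritic cell marker, stayed at or under 0.333 CPM in all lung libraries. Lung epithelial, endothelial and stromal markers summed to 235 to 278 CPM in DN3, 2671 to 4626 CPM in ZsGreen-positive and 1743 to 2314 CPM in ZsGreen-negative libraries, with ZsGreen-negative library 4 at 2010.3 CPM. Their part in the comparisons was not tested either.

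The spread of single genes followed the same pattern. The median SD of log2(CPM + 1) among tested members was 0.17 in DN3, 0.26 in ZsGreen-positive and 0.33 in ZsGreen-negative libraries, where all tested genes had 0.11, 0.19 and 0.19. In ZsGreen-negative libraries Oasl2 (0.87), Rsad2 (0.66) and Zbp1 (0.60) had the largest SD and Samd9l (0.15), Ly6e (0.16) and Herc6 (0.18) the smallest. In ZsGreen-positive libraries Oasl2 (0.65), Zbp1 (0.57) and Oas3 (0.53) were the most and Isg20 (0.06), Irf9 (0.08) and Samd9l (0.11) the least variable. In DN3 the extremes were Oas2 (0.39), Ifih1 (0.37) and Rsad2 (0.35) against Ifit1 (0.02), Ly6e (0.05) and Dhx58 (0.05).

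The rest of the pathway was described from lists of ligands, receptors, signal transducers, sensors and further interferon-stimulated genes. None of 21 interferon ligand genes passed the filter, and 17 had 0 counts in all 11 libraries. Ifng had 0 counts in each DN3 library, 1, 1 and 13 in ZsGreen-positive and 2, 2, 3, 2 and 4 in ZsGreen-negative libraries. Such counts are near the limit of detection in all groups, and a ligand may also come from cells that were not sorted.

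Of the 5 interferon receptor genes tested, 1 was called higher and 4 lower in DN3 in both comparisons, which share their DN3 libraries. All genes gave 35.5% higher and 41.2% lower against ZsGreen-negative and 34.8% and 40.3% against ZsGreen-positive ILC2, so counts over so few genes say little. Ifngr2, the signalling chain of the interferon gamma receptor, stood at 12.03, 11.6 and 12.1 CPM in DN3, 119.7, 113 and 119.2 CPM in ZsGreen-positive and 130.3, 115, 139, 137 and 132 CPM in ZsGreen-negative libraries. This was a log2 fold change of -3.42 ± 0.10 (edgeR adjusted p = 4.2e-18) against ZsGreen-negative and -3.26 ± 0.11 (edgeR adjusted p = 2.57e-17) against ZsGreen-positive ILC2. Ifnar1, a chain of the type I receptor, was lower by -1.86 ± 0.11 (edgeR adjusted p = 1.35e-12) and -1.73 ± 0.12 (edgeR adjusted p = 1.76e-11) in the same order, Ifngr1 by -0.65 ± 0.08 and -0.53 ± 0.09, and Il10rb, a chain of the type III receptor, by -1.48 ± 0.43 against ZsGreen-negative ILC2. Ifnar2, the other type I chain, was the one called higher, at 36.7 to 38.0 CPM in DN3, 24.8 to 28.2 CPM in ZsGreen-positive and 30.3 to 34.3 CPM in ZsGreen-negative libraries. Between the lung groups none of the 5 was called, and the smallest p was that of Ifnar2 (-0.29 ± 0.11, edgeR adjusted p = 0.156).

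Of 15 signal transducers tested, 2 were called higher and 8 lower in DN3 against ZsGreen-negative ILC2, where all genes gave 35.5% and 41.2%. Against ZsGreen-positive ILC2, 1 was called higher and 7 lower, where all genes gave 34.8% and 40.3%. The smallest p-values belonged to Irf2bp2, a corepressor of IRF2, Irf5, Tyk2 and Jak1, with log2 fold changes of -3.61 ± 0.12, -6.54 ± 0.29, -1.65 ± 0.08 and -1.40 ± 0.09 against ZsGreen-negative ILC2. Against ZsGreen-positive ILC2 they were -3.18 ± 0.12, -6.62 ± 0.30, -1.90 ± 0.09 and -1.32 ± 0.09. Irf2bp2 was also the one gene of these pathway lists called between the lung groups, at 769, 847 and 869 CPM in ZsGreen-positive and 1033, 927, 1173, 1143 and 1275 CPM in ZsGreen-negative libraries. All ZsGreen-positive libraries were below all ZsGreen-negative ones (-0.44 ± 0.10, edgeR adjusted p = 0.0149).

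Of 11 further sensors and adaptors tested, 1 was called higher and 8 lower in DN3 in both comparisons. All genes gave 35.5% higher and 41.2% lower against ZsGreen-negative and 34.8% and 40.3% against ZsGreen-positive ILC2. Samhd1, which degrades deoxynucleotides, stood at 0.699, 1.58 and 0.565 CPM in DN3, 595, 804 and 579 CPM in ZsGreen-positive and 664, 724, 810.4, 1030.2 and 783 CPM in ZsGreen-negative libraries, a log2 fold change of -9.62 ± 0.28 (edgeR adjusted p = 1.46e-14) against ZsGreen-negative ILC2. Traf3 (-1.93 ± 0.10), Ikbke (-1.45 ± 0.10) and Sting1 (-1.27 ± 0.10) were lower too. Against ZsGreen-positive ILC2 the leading genes were Samhd1 (-9.34 ± 0.29), Traf3 (-2.02 ± 0.10), Ikbke (-1.53 ± 0.11) and Rigi (-1.25 ± 0.10), which encodes RIG-I, so that this RNA sensor was lower in DN3 where its relatives Ifih1 and Dhx58 were higher.

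Of 74 further interferon-stimulated genes tested, 22 were called higher and 33 lower in DN3 against ZsGreen-negative ILC2, with a median log2 fold change of -0.20, where all genes gave 35.5%, 41.2% and a median of -0.10. Against ZsGreen-positive ILC2 it was 20 and 32 with a median of -0.23, where all genes gave 34.8%, 40.3% and a median of -0.08. Both sets of counts lie near those shares. The smallest p-values were those of Shisa5 (-3.72 ± 0.11), Casp4 (-6.81 ± 0.31), Sp100 (-1.94 ± 0.09) and Slfn5 (-3.94 ± 0.18) against ZsGreen-negative ILC2, and the same 4 against ZsGreen-positive ILC2 at -3.64 ± 0.11, -6.59 ± 0.32, -2.10 ± 0.10 and -3.95 ± 0.19. Between the lung groups 0 of 73 were called in either direction by edgeR, and the 4 of smallest p were Cxcl10 (-0.42 ± 0.15, edgeR adjusted p = 0.15), Ifitm3 (1.10 ± 0.41, edgeR adjusted p = 0.162), Ifi203 (-0.21 ± 0.09, edgeR adjusted p = 0.223) and Nlrc5 (0.85 ± 0.31, edgeR adjusted p = 0.249). The library pattern was shared, with 54 of the 73 (74.0%) highest in ZsGreen-negative library 4 of the 5 and 50 (68.5%) highest in ZsGreen-positive library 2 of the 3. Gbp6, a guanylate-binding protein, stood at 68.5, 57.9 and 53.0 CPM in DN3, 6.84, 27.1 and 3.15 CPM in ZsGreen-positive and 6.92, 5.77, 7.45, 45.1 and 4.84 CPM in ZsGreen-negative libraries.

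The genes in which ZsGreen-negative library 4 stood furthest above its group were counted in the same way. Of 13771 genes ranked by the gap of log2(CPM + 1) to the next highest ZsGreen-negative library, the top 30 held 7 of the 36 genes (Zbp1, Gbp2, Irf7, Oas3, Xaf1, Dhx58 and Isg15) and 15 of the further list. In the same ranking the other lung libraries held 0 of the 36 genes in their top 30. For ZsGreen-positive library 2 the top 30 held 2 of the further list, Iigp1 and Gbp6, among macrophage-associated genes such as Chil3 (181.7 CPM against 28.4 CPM in the next library), Clec7a, Marco and Itgax. The ranking was made after the values were seen and carries no test.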

How the data were processed

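RNA of sorted cells was isolated with a PicoPure kit and made into libraries with a Watchmaker mRNA kit, per the labels' protocols. The authors deposited 1 table of raw whole-number counts per gene for 11 libraries, and 0 columns of other samples were found in it. The submitters' processing notes name the build GRCm39 and DESeq2. Aligner, counter, annotation release and strand setting were not given in the sources used here. The 36 genes and the pathway and marker lists were chosen with earlier results of these data known.

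Counts were scaled with TMM factors and tested over all genes with edgeR 4.0.16 in R 4.3.3 (robust quasi-likelihood test, filterByExpr with a minimum count of 10, Benjamini-Hochberg adjustment, threshold 0.05). The comparison of ZsGreen-positive with ZsGreen-negative ILC2 was fitted to 13771 genes in 8 lung libraries, with a batch term. Comparisons of DN3 used all 11 libraries without a batch term and 15132 genes. DESeq2 1.42.0 and limma 3.58.1 (voom), other scalings, filters, fits and left-out libraries were alternatives. Scripts were checked on simulated data. Levels are CPM, or log2(CPM + 1) where said. A count of 0 allows up to 3 counts, and intervals are exact at 95%. Called genes were named in order of p with values in every library, and for each pathway list up to 4 genes of smallest p. Promoter windows and exon lengths come from GRCm38 annotations, which is not the build of the counts, and serve only for sequence, length and overlap. Over 16 pairs of replicates the chi-square per degree of freedom of their counts was 1.77 to 15.3, so none was the same library sequenced again. Whether libraries share an animal or an RNA sample cannot be read from this value.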

Additional observations from a re-analysis of the deposited data

Results flagged for a closer look

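Among the 36 genes and their mean level, 15 values stood apart in the ZsGreen-negative group, all in library 4, in that the gap to the next highest of the 5 libraries took more than 0.71 of the group's range. For normally distributed values chance gives such a gap in about 1 in 20 groups, a rate that need not hold for counts near 0. The share of all genes passing this rule was not counted. The genes share a library, so these are not 15 separate events. Regulators were Irf1 at 158 CPM in library 4, against 108 CPM in the next highest library, and Irf7 at 42.6 against 20.2 CPM. Sensors were Ifih1 at 16.1 against 10.57 CPM, Dhx58 at 6.99 against 3.29 CPM and Zbp1 at 55.7 against 25.3 CPM. Oas3 stood at 46.9 against 23.8 CPM, Ifit1 at 3.66 against 1.04 CPM, and Ifit3 at 0.666 against 0.0744 CPM, the last resting on 4 counts against 1. Ifit1bl1 stood at 0.166 CPM, a single count, where the other 4 libraries had 0, and any gene with such counts would pass the rule. Mx1 was at 3.49 against 0.722 CPM and Gbp2 at 73.1 against 34.5 CPM. Trim30a was at 77.7 against 59.4 CPM, Rtp4 at 8.32 against 1.62 CPM and Xaf1 at 27.1 against 13.9 CPM. The mean log2(CPM + 1) over the 36 genes was 3.87 in library 4, against 3.14 in the next highest.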

How the results depend on the processing

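Of 1038 refits of the 50 calls in the DN3 comparisons, 1001 kept direction and threshold, 37 lost the threshold and 0 reversed. Where the gene was tested, 41 of the 50 calls were never lost. Refits in which a gene fell under the filter are not in these numbers. With at least 5 CPM in 3 libraries this held for Oas1a, Oasl1, Ifit1bl1, Mx1, Mx2, Rsad2 and Ifi44. With at least 5 CPM in 3 libraries, 11 rather than 17 genes were called higher in DN3 against ZsGreen-negative ILC2, since fewer of the genes are then tested. Leaving out single libraries gave 0 to 1 genes called higher and 0 lower in ZsGreen-positive against ZsGreen-negative ILC2, the 1 being Irf9 without ZsGreen-negative library 4. It gave 15 to 21 higher and 7 to 8 lower in DN3 against ZsGreen-negative ILC2, and 15 to 19 higher and 7 to 10 lower against ZsGreen-positive ILC2. DESeq2 called 15 and 8, and 16 and 7, in those 2 comparisons. With upper-quartile scaling the all-gene median against ZsGreen-negative ILC2 was 0.01 in place of -0.10, with 19 higher and 7 lower. The 2024 libraries alone gave 15 and 7 against ZsGreen-negative and 16 and 7 against ZsGreen-positive ILC2, and with them Gbp2 and Mx1 against ZsGreen-negative ILC2, Isg15 against ZsGreen-positive ILC2 and Ifit1 against both were no longer called. Gbp2 was also lost under upper-quartile scaling, without a filter and with 2 groups in the fit (adjusted p of 0.0537, 0.0714 and 0.0709).

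With the replicate number as a block, 0 and 0 genes were called in ZsGreen-positive against ZsGreen-negative, 18 and 8 in DN3 against ZsGreen-negative and 19 and 10 in DN3 against ZsGreen-positive ILC2, and Usp18 against ZsGreen-negative ILC2 had an adjusted p of 0.0695. Same-numbered libraries did not deviate together (correlations of -0.165 to 0.0778), so these numbers give no pairing. Between the lung groups the best correlation with a library of another number was 0.173 to 0.23. Other pairings were not fitted, and which libraries share an animal or a sort is not stated. Depth limits Ifit3, Ifit3b and Ifi27l2a, which could not be tested, and in the lung the 12 genes under the filter.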
